A study of Rattus norvegicus with 24 samples.

Results

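The 51 genes described here encode nuclear subunits and assembly factors of the respiratory complexes II, III, IV and V, measured by RNA-seq in aged rats in the tibialis anterior (TA), the shin muscle that lifts the foot. They were taken by symbol, as every gene of the families Sdha to Sdhd, Sdhaf, Uqcr, Uqcc, Cox followed by a digit, and Atp5. The 8 oxidase genes with tissue-specific partners (Cox4i1, Cox4i2, Cox6a1, Cox6a2, Cox7a1, Cox7a2, Cox8a and Cox8b) were left out, and the row with the highest mean stood for a symbol with several rows. This gave 51 of the 13458 symbols in the deposited table. Of these, 35 were subunits (4 of complex II, 8 of complex III, 7 of complex IV and 16 of complex V), 15 were assembly factors (3 of complex II, 3 of complex III and 9 of complex IV) and 1 was Atp5if1, the inhibitor of the ATP synthase. All 51 were above 0 in at least 3 libraries and were tested. The subunits encoded by mitochondrial DNA were not analysed here.

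Complex II (succinate dehydrogenase) oxidizes succinate within the citric acid cycle and passes the electrons to ubiquinone. Complex III hands them from ubiquinone to cytochrome c, complex IV (cytochrome c oxidase) hands them to oxygen, and complex V (ATP synthase) uses the proton gradient built on the way to make ATP. Muscle fibres rely on these complexes for sustained contraction, and assembly factors are needed to insert the hemes, copper and iron-sulphur clusters and to join the subunits without being part of the finished enzymes.

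All animals were male Fischer 344 rats of 23 months. In 9 of them the left common peroneal nerve was silenced with tetrodotoxin (TTX), a blocker of voltage-gated sodium channels delivered from an implanted pump, so that the left TA could not be made to contract, while the right limb had no surgery. The left TA was taken after 6 to 7 days of TTX in 3 animals (atrophy), after these days and 9 more without TTX in 3 animals (recovery), and after a further 5 to 6 days of renewed TTX in 3 animals (repeated atrophy). Control means the 9 right limbs of these animals, pooled. A further 3 sham animals, 1 for each time point, had the operation without TTX, and both of their limbs (sham left, sham right) make up the rest of the 24 samples. Each silenced group holds 3 animals of 1 sex and 1 strain, and TTX acted on 1 nerve of the leg, so the tibial nerve and the muscles behind the shin were spared.

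Library sizes, in units of 1000000 reads, were 18.9 to 30.9 (median 26.1), as inferred from the step between low values, and values are CPM (counts per 1000000 counts in the library) as deposited. All 9 muscle fibre markers were present, and none of the lists of markers for other cell types was at 0. The fibre markers summed to 196000 to 269000 CPM in the control limbs, 83400 to 208000 CPM after atrophy, 195000 to 214000 CPM after recovery and 108000 to 144000 CPM after repeated atrophy. Their sum was thus lower in every limb of repeated atrophy than in any control limb, beside the falls of subunits described below, and its part in them was not tested. By group mean, Acta1, Ckm, Myh1, Myh4, Actn3 and Atp2a1 were lower after repeated atrophy than in control. Tnnt3 was higher (4210 against 3450 CPM), and Myh2 (3100 against 2990 CPM) and Pvalb (2180 against 2280 CPM) were near control. The 10 most abundant rows took 24.3% to 32.7% of the CPM in the control limbs, 13% to 25.6% after atrophy, 25.8% to 27.7% after recovery and 15.6% to 19.2% after repeated atrophy. With a fixed total, the median of all 14031 rows tested lay 0.22 above control after atrophy, 0.20 after repeated atrophy and 0.02 after recovery (log2 scale). Calls are therefore given on the deposited scale and again after the limbs were rescaled with trimmed means of the log ratios, which moved these medians to 0.00, -0.01 and 0.01. In 1 library of each silenced group the median row stood apart from the other 2, at 0.07 above the control mean in atrophy replicate 2 against 0.30 and 0.28, and at 0.03 in repeated atrophy replicate 1 against 0.26 and 0.30. The counts of calls of their groups against control are given with and without each. Group medians and ratio tests are given with both. In whole muscle, fewer cells of a type and less RNA per cell cannot be told apart.

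The 51 genes together took 1.28% to 2.43% of the CPM in the control limbs, 1.41% to 1.66% after atrophy, 1.97% to 2.8% after recovery and 1.28% to 1.62% after repeated atrophy. The control limbs were not alike. Those of the 3 recovery animals stood at 2.25%, 2.19% and 2.43%, those of the 3 atrophy animals at 1.79%, 1.8% and 1.28%, and those of the 3 repeated atrophy animals at 2.27%, 1.72% and 1.65%. The untreated right limbs of the recovery animals were thus among the highest, and a left limb set against the right limb of its own animal gives a different answer from the same limb set against the pool. Both are given below, the latter as the main comparison and the former as a fit in which each animal is a block.

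A gene passed the test (limma on log2(CPM + 1)) where its fold change reached 1.2 in either direction and its p, adjusted over all rows by the method of Benjamini and Hochberg, was no higher than 0.05. After atrophy, Sdha and Atp5f1a fell, and Cox17, Cox7a2l and Atp5if1 rose. These 2 lower calls stand against a background of 2.33% of all rows, and the 3 higher calls against 20.3%. The median of the 51 genes was -0.05, against 0.22 for all rows. On the rescaled values 6 genes passed as lower (4.9% of all rows) and 2 as higher (4.75%), and the median was -0.41. No gene passed with the animal as a block (2 had an unadjusted p under 0.05), and none passed without atrophy replicate 1. Without atrophy replicate 2 there were 5 lower and 6 higher calls, and without any 1 of the recovery or repeated atrophy animals there were 1 lower and 2 higher calls.

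After recovery 0 genes passed as lower (22 of 51 had an unadjusted p under 0.05 in either direction, and only Cox19 of these lay below control). As higher 6 passed, namely Sdhb, Cox18, Cox20, Atp5mc3, Atp5md and Atp5me. The backgrounds were 3.33% for lower and 4.4% for higher calls. The median was 0.37, with 46 of the 51 genes above control. After rescaling 0 genes passed as lower (5.82% of all rows) and 3 as higher (6.25%), and with the animal as a block none passed in either direction (8 had an unadjusted p under 0.05). The calls rested on few limbs. None passed without recovery replicate 1 or without recovery replicate 2, 1 passed without repeated atrophy replicate 2, 2 passed without atrophy replicate 1 or 3, and 3 passed without repeated atrophy replicate 3. Beside this rise, the 5 fibroblast markers summed to 1020 to 1920 CPM in the recovery limbs against 194 to 528 CPM in the control limbs, and the 8 macrophage and leukocyte markers to 87.9 to 176 CPM against 31.1 to 105 CPM, all of them above 0. Their part in the result was not tested.

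Repeated atrophy gave the most calls against control, 10 lower and 5 higher. The 10 that fell were Sdha, Sdhc and Sdhd of complex II, Uqcrc1 and Uqcrfs1 of complex III, Atp5f1a, Atp5f1c and Atp5mc1 of complex V, and the oxidase assembly factors Cox14 and Cox19. The 5 that rose were Atp5if1, Cox15, Cox16, Cox17 and Uqcc2. The background was 6.24% of all rows for lower and 28.1% for higher calls, so the lower calls of the 51 genes were more frequent, and the higher calls less frequent, than those of all rows. The 8 called subunits fell. Of the 15 assembly factors 4 rose, a share near that of all rows, and of these Cox17 alone passed as higher on rescaling. After rescaling, 18 genes passed as lower (12.1% of all rows) and 2, Cox17 and Atp5if1, as higher (13.1%), with a median of -0.55 in place of -0.17. With the animal as a block 8 passed as lower (5.66%) and 3 as higher (21.5%), and the calls of Cox14, Cox15, Cox16 and Cox19 were lost. Leaving out repeated atrophy replicate 1 gave 8 lower and 5 higher calls, leaving out replicate 2 gave 7 lower and 2 higher calls, and leaving out replicate 3 gave 5 lower and 4 higher calls.

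**Figure D1:**
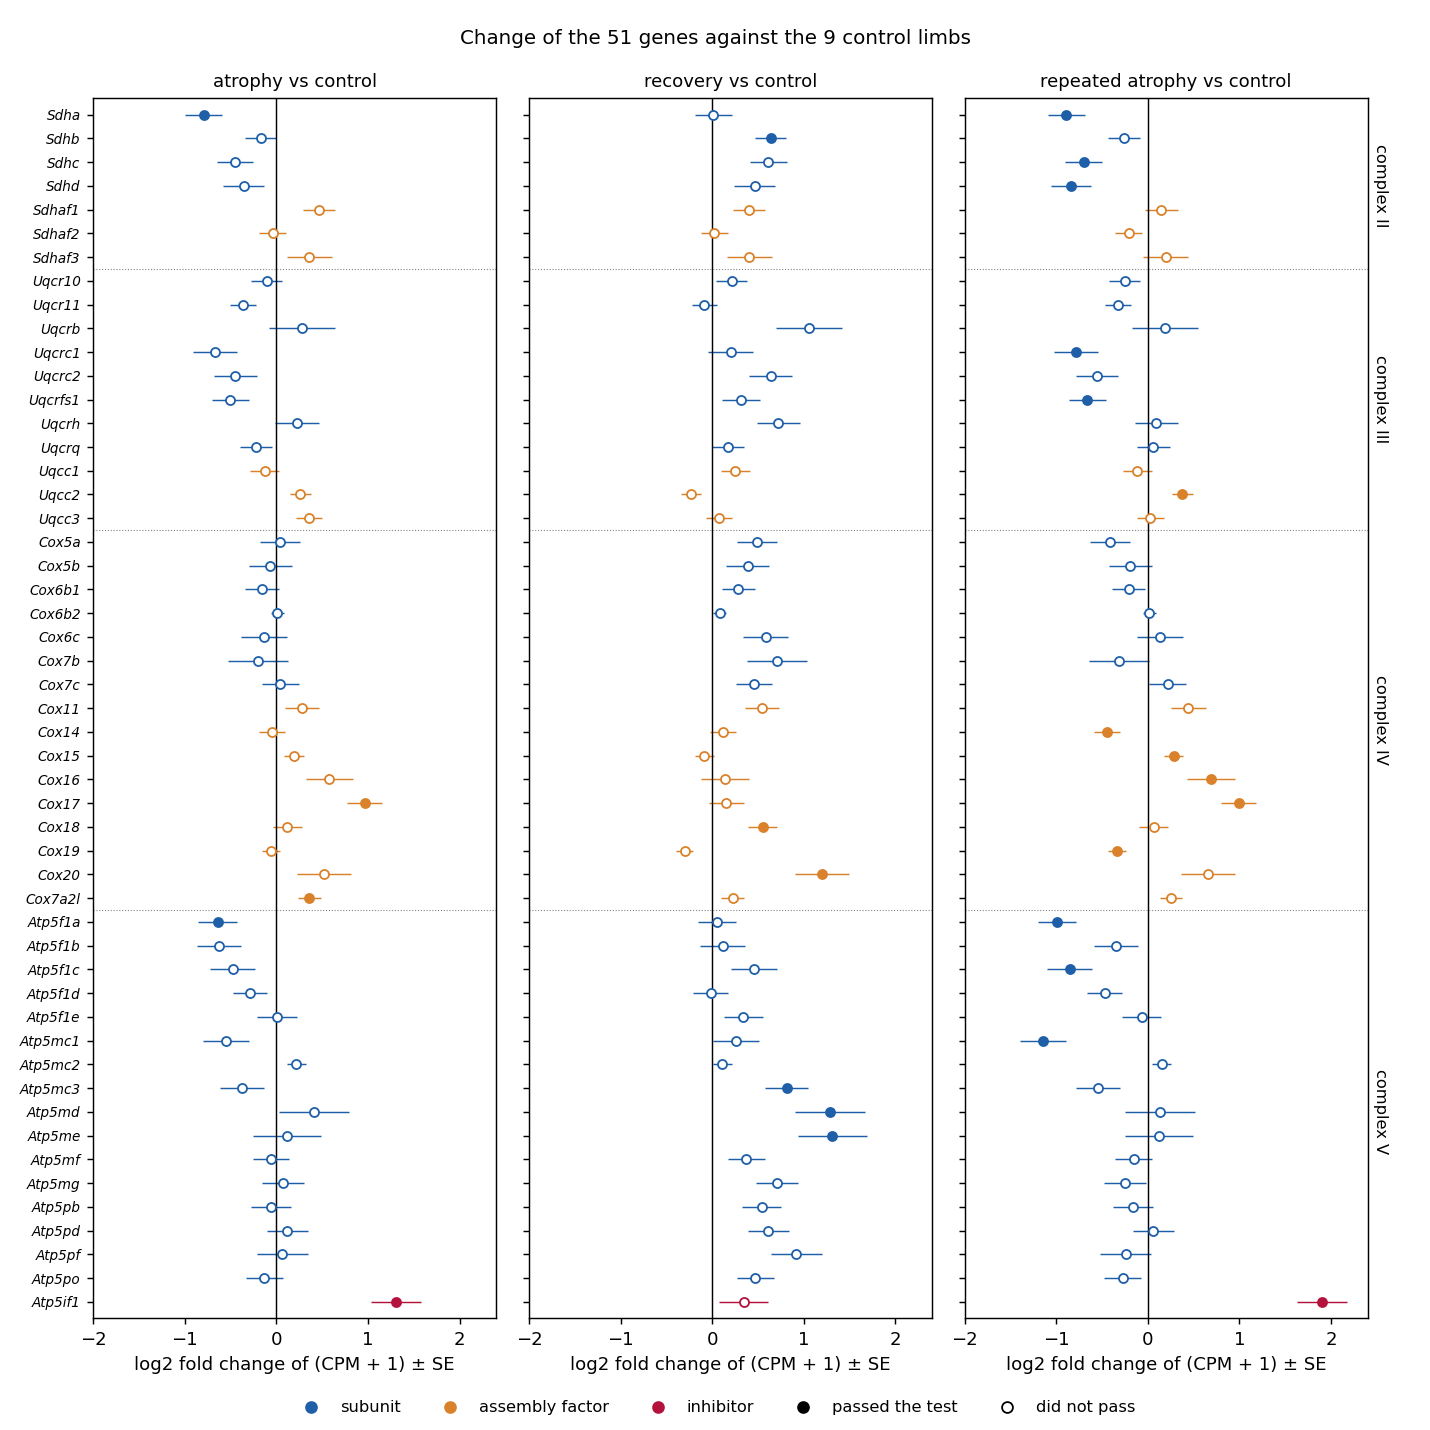
Log2 fold change of (CPM + 1) with its standard error for the 51 genes against the 9 control limbs, by complex, in blue for subunits, orange for assembly factors and red for the inhibitor, filled where the test was passed. After repeated atrophy the 8 filled blue points all lie below 0, and Atp5if1 lies farthest to the right at 1.90.

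After repeated atrophy the median log2 fold change was -0.25 over the 35 subunits, 25 of them below control, and 0.19 over the 15 assembly factors, 4 of them below control, beside 0.20 over all rows, so that the assembly factors lay at the level of all rows and the subunits below it. After atrophy the medians were -0.14 and 0.28, beside 0.22 over all rows, and after recovery 0.46 and 0.16, beside 0.02. Within animals (left minus own right limb) the subunit medians were -0.49, 0.05 and -0.06 after repeated atrophy and those of assembly factors -0.01, 0.46 and 0.12, so that on the deposited scale 1 of the 3 animals held most of the difference of the subunits. Rescaled, the subunit medians within animals were -0.73, -0.43 and -0.37, below 0 in all 3. After atrophy they were -0.08, -0.10 and 0.34 for subunits and 0.34, -0.08 and 0.30 for assembly factors, with opposite signs in 1 of the 3 animals. After recovery the subunit medians within animals were 0.49, 0.24 and -0.21 (rescaled 0.46, 0.24 and -0.54), so that 1 of the 3 animals went against the group median. On the rescaled values both medians were below 0 after repeated atrophy, at -0.64 for subunits and -0.13 for assembly factors, with the median of all rows at -0.01. The sham animal of the repeated atrophy time point had subunit medians against the control mean of -0.48 (left) and -0.52 (right) as deposited. Those of the 3 limbs of repeated atrophy were -0.13, -0.18 and -0.42. Assembly factors of this sham animal were at -0.093 and -0.124. The other sham animals had subunit medians of -0.011 and 0.395 on the left and -0.36 and 0.21 on the right. Subunit medians of the 9 control limbs ranged from -0.605 to 0.429. By complex, the subunit medians after repeated atrophy were -0.77 for complex II, -0.29 for complex III, -0.19 for complex IV and -0.25 for complex V. Against the control mean, the sham animal of that time point had -0.82, -0.32, -0.25 and -0.51 on the left, in this order. On the right it had -0.66, -0.53, -0.42 and -0.56. For complex II the 3 limbs of repeated atrophy were at -0.75, -0.57 and -0.83. The other sham animals were at -0.215 and 0.51 on the left and -0.27 and 0.29 on the right for this complex.

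After repeated atrophy Atp5mc1 had the largest fall of the subunits and Cox17 the largest rise of the assembly factors on the deposited scale, and the promoters of this pair are shown for that reason. They come from RefSeq on GRCr8, a later build than the rn7 of the deposited table, and each is the 250 bases before the annotated start on the strand of the gene. That of Atp5mc1 is chr10:81523346-81523595 on the minus strand and that of Cox17 is chr11:75912020-75912269 on the minus strand. Capitals mark a match, on the reverse strand and 102 bases before the start, to AAGGTCA, the core letters of the ERR motif.
Atp5mc1: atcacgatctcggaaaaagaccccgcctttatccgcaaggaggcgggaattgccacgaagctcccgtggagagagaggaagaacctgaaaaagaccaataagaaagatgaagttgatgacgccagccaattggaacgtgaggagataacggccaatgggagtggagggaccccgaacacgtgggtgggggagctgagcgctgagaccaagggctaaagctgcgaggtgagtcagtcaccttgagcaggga
Cox17: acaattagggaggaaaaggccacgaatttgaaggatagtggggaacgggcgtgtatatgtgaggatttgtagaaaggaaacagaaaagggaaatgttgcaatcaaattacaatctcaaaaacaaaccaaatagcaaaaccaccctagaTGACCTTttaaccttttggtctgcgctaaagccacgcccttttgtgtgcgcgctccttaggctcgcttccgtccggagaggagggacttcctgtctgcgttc

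Of the 51 genes, 47 had a promoter in the RefSeq set, 46 by symbol and Atp5md by its other symbol Atp5mk. Each window of 300 bases, 250 before and 50 after the start, was searched on both strands for 4 sets of letters named after factors known for mitochondrial genes. The ETS letters CCGGAAG were found in 19 of the 47 promoters (40.4%) against 8.75% of all 33469 promoters of that length. The NRF1 letters GCGCATGCG were in 6 (12.8% against 1.52%), the ERR letters AAGGTCA in 7 (14.9% against 4.61%) and the YY1 letters AAGATGGC in 7 (14.9% against 3.17%), and 18 promoters held none of the 4, among them that of Atp5mc1. ETS letters were in 11 of 31 subunit promoters and in 8 of 15 assembly factor promoters. These are matches of letters in a window, and no binding was measured. The background was every promoter of the set, whether or not its gene was expressed in these muscles.

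In complex II all 4 subunits lay below the control mean after atrophy and after repeated atrophy, while after recovery they ranged from 0.01 to 0.64 above it (log2 scale). Sdha, the flavoprotein that oxidizes succinate (chr1:28935965-28960937, rn7), ranged from 423 through a median of 668 to 880.2 CPM in the 9 control limbs. It stood at 304, 466 and 381 CPM after atrophy, at 722, 695 and 580.5 CPM after recovery and at 346, 354 and 359.8 CPM after repeated atrophy. All 3 limbs of repeated atrophy, and 2 of the 3 of atrophy, were below every control limb, while the recovery limbs lay inside the control range. The left limb of the sham animal of the repeated atrophy time point, at 359.7 CPM, was level with those of repeated atrophy, and its right limb was at 456 CPM. The log2 fold change was -0.79 ± 0.20 (SE) after atrophy (adjusted p = 0.012) and -0.89 ± 0.20 after repeated atrophy (adjusted p = 0.0026). The fall after atrophy was lost without atrophy replicate 1 and with the animal as a block, and that after repeated atrophy passed in both cases, without any 1 animal and with the block at -0.90.

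Sdhb, the iron-sulphur subunit that carries electrons out of Sdha, passed after recovery on the deposited scale. Its control limbs ranged from 209.7 through 291 to 419 CPM. It stood at 262, 266 and 276 CPM after atrophy, 546, 499.6 and 383 CPM after recovery, and 252, 266 and 238 CPM after repeated atrophy. Of the left limbs of the TTX animals, 2 of the 3 recovery limbs left the control range, above it. Sham limbs left it too, at 445 CPM in 1 left limb and at 204.5 and 204.3 CPM in both limbs of the sham animal of the repeated atrophy time point. The rise after recovery was 0.64 ± 0.17 (adjusted p = 0.030), and it was lost on rescaling, with the block, and without any 1 of recovery replicates 1 and 2 and repeated atrophy replicates 2 and 3. After repeated atrophy Sdhb was at -0.26 ± 0.17 (adjusted p = 0.27), and on rescaling it passed as lower at -0.64 (adjusted p = 0.043).

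The membrane anchors Sdhc and Sdhd, which bind ubiquinone, had values near or below the bottom of the control range in the limbs of repeated atrophy. For Sdhc the control limbs ranged from 202 through 362 to 476 CPM, and the limbs of repeated atrophy stood at 217, 229.9 and 204 CPM. For Sdhd the control limbs ranged from 227 through 455 to 545 CPM, and the limbs of repeated atrophy stood at 232, 281 and 175 CPM. Both limbs of the sham animal of that time point were as low, at 185 and 195 CPM for Sdhc, below all 3 limbs of repeated atrophy, and at 237 and 239 CPM for Sdhd. The falls were -0.70 ± 0.20 for Sdhc (adjusted p = 0.011) and -0.84 ± 0.22 for Sdhd (adjusted p = 0.0072), they passed with the block, and each was lost without repeated atrophy replicate 3. After recovery 2 of the 3 limbs of each gene were above every control limb, at 612, 602 and 432 CPM for Sdhc and 655, 602 and 440.0 CPM for Sdhd, but neither passed against control (adjusted p = 0.064 and 0.20). The 3 assembly factors of complex II passed in no comparison on the deposited scale. Sdhaf2, which attaches the flavin to Sdha, had the largest fall of them after repeated atrophy at -0.21 ± 0.14 (adjusted p = 0.29), and it passed as lower on the rescaled values at -0.59.

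In complex III a core protein and the Rieske protein fell after repeated atrophy, while the small subunits around them did not pass on the deposited scale. Uqcrc1, a core protein, ranged from 350.1 through 495 to 817 CPM in the control limbs and stood at 353, 272 and 312 CPM after repeated atrophy. Uqcrfs1, the Rieske iron-sulphur protein that passes electrons towards cytochrome c1, ranged from 392 through 571 to 836 CPM and stood at 487, 373 and 324 CPM. In each gene 2 of the 3 limbs of repeated atrophy were below every control limb. The sham animal of that time point, without TTX, was as low, at 259 and 294 CPM (left and right) for Uqcrc1 and 361 and 349.7 CPM for Uqcrfs1. The changes were -0.79 ± 0.24 for Uqcrc1 (adjusted p = 0.017) and -0.66 ± 0.20 for Uqcrfs1 (adjusted p = 0.018), both of which passed with the block and were lost without repeated atrophy replicate 2 or 3. The other core protein, Uqcrc2, given here because its partner is, was at -0.56 ± 0.23 and missed the threshold (adjusted p = 0.072), passing as lower on the rescaled values at -0.94.

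After atrophy Uqcrc1 stood at 271, 370.1 and 383 CPM and Uqcrfs1 at 410.5, 472 and 419.7 CPM. Neither passed on the deposited scale (-0.67, adjusted p = 0.054, and -0.50, adjusted p = 0.080), and both passed as lower on the rescaled values at -1.03 and -0.87. Uqcr11, a small subunit of complex III, was low as well, with 145, 183 and 155 CPM against 159 through 218 to 236 CPM in control, a change of -0.36 ± 0.14 (adjusted p = 0.064) and of -0.73 once rescaled, which passed. Another pair of small subunits had high values in recovery that did not pass. Uqcrb, which helps to bind ubiquinone, stood at 358, 285 and 237 CPM against 63.5 through 140.3 to 281 CPM in control (1.05 ± 0.36, adjusted p = 0.075), and the hinge protein Uqcrh at 277, 241 and 196 CPM against 83.97 through 164 to 192 CPM (0.72 ± 0.24, adjusted p = 0.068). All 3 recovery limbs of Uqcrh were above every control limb.

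Of the complex III assembly factors, Uqcc2, needed for the synthesis of cytochrome b, passed on the deposited scale. It ranged from 54.5 through 60.8 to 69.2 CPM in control and stood at 90.1, 75.4 and 73.6 CPM after repeated atrophy, above every control limb (0.38 ± 0.11, adjusted p = 0.013). Of the sham left limbs 2 of 3 were above every control limb too, at 73.5 and 74.8 CPM, level with 2 of the 3 limbs of repeated atrophy. This direction did not hold on rescaling, where the change was -0.0011, and the call was lost without repeated atrophy replicate 1 or 2. With the block it was 0.51 and passed. Uqcc1, another factor for cytochrome b, stood at 54.05, 56.5 and 56.6 CPM after repeated atrophy, inside the control range of 44.6 to 73.7 CPM.

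**Figure D2:**
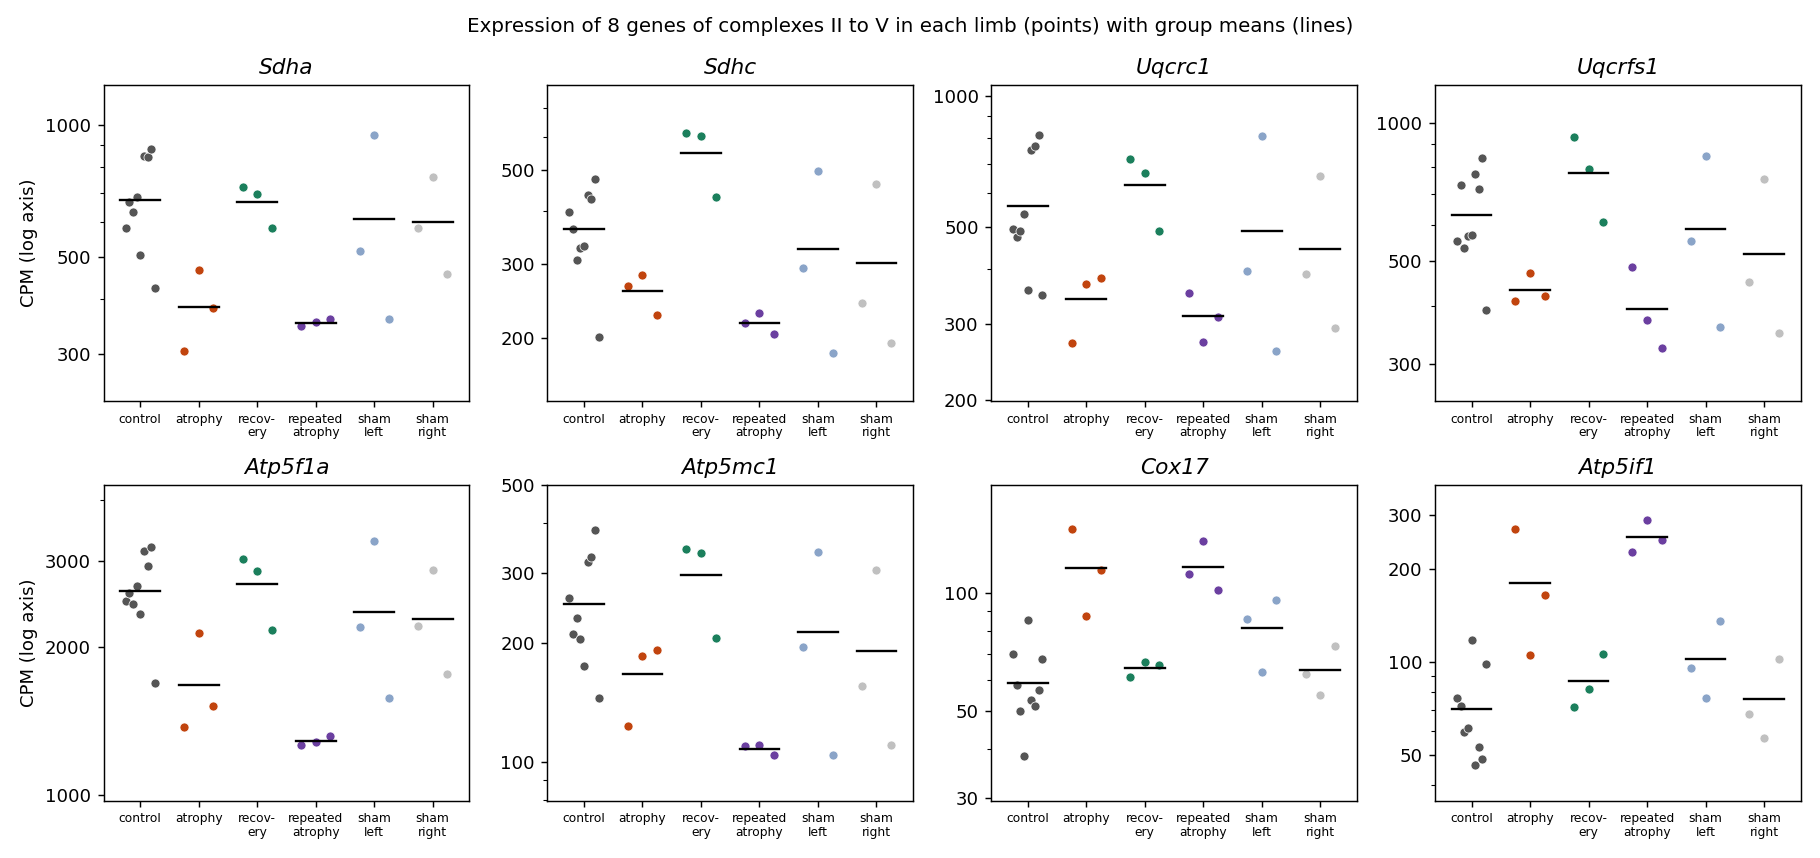
CPM on a log axis of 8 genes in each limb (points) of the 6 groups, with the group mean as a line. In repeated atrophy the 3 limbs of Atp5f1a sit between 1267 and 1317 CPM, below all 9 control limbs, and those of Atp5if1 between 227 and 289 CPM, above all of them.

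In complex IV none of the 7 subunits passed against control after atrophy, recovery or repeated atrophy on the deposited scale, and their medians were -0.07, 0.46 and -0.19. Cox5a, Cox5b and Cox7b are small nuclear subunits that surround the catalytic core. For Cox5a the control limbs ranged from 163 through 275 to 342 CPM, and the left limbs stood at 290.3, 258 and 243 CPM after atrophy, 445, 382 and 275 CPM after recovery and 206, 228 and 151 CPM after repeated atrophy. It was the subunit of complex IV that passed on rescaling after repeated atrophy (-0.80, against -0.41 ± 0.22 with adjusted p = 0.16 as deposited). It was also the subunit of this complex that passed between repeated atrophy and recovery, at -0.90 ± 0.27 (adjusted p = 0.019), which did not pass with the block or without recovery replicate 1, recovery replicate 2 or repeated atrophy replicate 3.

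For Cox5b the control limbs ranged from 208 through 303 to 484 CPM and the limbs of repeated atrophy stood at 305, 274 and 247 CPM, and for Cox7b these were 200.4 through 438 to 723 CPM and 399, 346 and 208 CPM. All lay inside the control range, at -0.19 ± 0.23 and -0.31 ± 0.33. Cox7c, another small subunit, had the largest rise of all subunits after repeated atrophy, with 572, 501 and 389 CPM against 276 through 422 to 615 CPM in control, which was 0.22 ± 0.20 (adjusted p = 0.45) and -0.17 once rescaled. Cox6b2, known as a testis form, was at or below 0.438 CPM in every limb.

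Among the assembly factors of complex IV was the only rise of the 51 genes, besides that of Atp5if1, that passed after both atrophy and repeated atrophy. Cox17 (chr11:62400734-62406508, rn7), the copper chaperone that starts the delivery of copper to the oxidase and whose promoter is printed above, ranged from 38.5 through 56.6 to 85.6 CPM in control. It stood at 146, 87.6 and 115 CPM after atrophy, 61.1, 66.8 and 65.8 CPM after recovery and 112, 136 and 102 CPM after repeated atrophy. All 6 silenced limbs were above every control limb and above every sham limb but for the 87.6 CPM of atrophy replicate 2, and all 3 recovery limbs were inside the control range. The rise was 0.96 ± 0.19 after atrophy (adjusted p = 0.0065) and 0.99 ± 0.19 after repeated atrophy (adjusted p = 0.00085), and both passed on rescaling at 0.60 and 0.61. With the block the rise after repeated atrophy passed at 1.25 and that after atrophy did not at 0.61 (adjusted p = 0.18), and that after atrophy was also lost without atrophy replicate 1.

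Cox16, which acts at the copper site of the second subunit, stood at 54.9, 51.9 and 31.4 CPM after repeated atrophy against 19.1 through 23.03 to 45.9 CPM in control, which was 0.68 ± 0.26 (adjusted p = 0.0497). It was lost on rescaling (0.31), with the block (adjusted p = 0.094) and without any 1 of recovery replicates 1, 2 and 3 and repeated atrophy replicates 1 and 2. Cox15, which makes heme a, stood at 70.9, 73.6 and 69.4 CPM against 53.95 through 57.7 to 72.3 CPM, at 0.28 ± 0.11 (adjusted p = 0.048), turned to -0.098 on rescaling, and passed in 2 of the 9 fits that left out an animal, those without atrophy replicate 2 and repeated atrophy replicate 1. The supercomplex factor Cox7a2l, which the rule for named members does not pick and which is given because it passed after atrophy, stood at 159.5, 119 and 139.7 CPM against 97.5 through 104 to 144 CPM. Its change of 0.36 ± 0.12 (adjusted p = 0.044) became -0.0025 on rescaling, and it passed in 1 of the 9 fits that left out an animal, that without atrophy replicate 2.

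Cox14 and Cox19 fell after repeated atrophy. Cox14, which couples the synthesis of the first oxidase subunit to its assembly, ranged from 47.3 through 56.3 to 72.98 CPM in control and stood at 42.6, 39.6 and 45.04 CPM. Cox19, a factor in copper handling, ranged from 53 through 57.8 to 62.3 CPM and stood at 41.9, 48.1 and 48.2 CPM. All of these limbs were below every control limb, and 1 sham animal was as low in both limbs, at 42.9 and 43.7 CPM for Cox14 and 39.2 and 40.1 CPM for Cox19. The changes were -0.45 ± 0.14 (adjusted p = 0.020) and -0.34 ± 0.10 (adjusted p = 0.011), or -0.82 and -0.71 once rescaled. They did not pass with the block (-0.27 in each), and they were lost without repeated atrophy replicate 2 for Cox14 and replicate 1 for Cox19. The recovery limbs of Cox19 were low as well, at 49.1, 44.4 and 48.1 CPM (-0.30 ± 0.10, adjusted p = 0.061).

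By group mean, Cox18, Cox20 and Cox11 were highest after recovery. Cox20, a chaperone of the second oxidase subunit, stood at 51.6, 41.1 and 40.9 CPM against 11.3 through 18.3 to 32.1 CPM in control, and Cox18, which inserts that subunit into the membrane, at 15.03, 15.1 and 11.8 CPM against 7.53 through 9.28 to 10.7 CPM. Every recovery limb was above every control limb for both genes. The rises were 1.199 ± 0.29 (adjusted p = 0.020) and 0.55 ± 0.16 (adjusted p = 0.045), and that of Cox20 passed on rescaling too, but neither passed with the block. Cox20 was lost without any 1 of the 3 recovery animals, and Cox18 passed in 2 of the 9 fits that left out an animal, those without atrophy replicate 2 and repeated atrophy replicate 1. Cox11, another copper factor, stood at 15.7, 18.4 and 19.6 CPM against 8.65 through 12.2 to 15.5 CPM, and did not pass (0.54 ± 0.19, adjusted p = 0.082). Single silenced limbs were as high. In repeated atrophy replicate 2 Cox11 was at 21.95 CPM and Cox20 at 47.45 CPM. Cox20 was at 46.9 CPM in atrophy replicate 1, and Cox18 at 12.7 CPM in repeated atrophy replicate 1. Between repeated atrophy and recovery none of the 3 passed by limma (adjusted p = 0.075 for Cox18, 0.27 for Cox20 and 0.78 for Cox11).

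Of the subunits of the head of complex V, Atp5f1a and Atp5f1c passed as lower after repeated atrophy on the deposited scale, and differences between subunits were not tested here. Atp5f1a, the alpha subunit (chr18:71292406-71300343, rn7), ranged from 1689 through 2586 to 3205 CPM in control. It stood at 1377, 2136 and 1517 CPM after atrophy, 3029, 2868 and 2174 CPM after recovery and 1267, 1281 and 1317 CPM after repeated atrophy. The 3 limbs of repeated atrophy were the lowest of all 24, sham limbs included. The fall was -0.64 ± 0.21 after atrophy (adjusted p = 0.035) and -0.996 ± 0.21 after repeated atrophy (adjusted p = 0.0017). That after repeated atrophy passed with the block at -0.99 and without any 1 animal, whereas that after atrophy was lost with the block (-0.38) and passed in 1 of the 9 fits that left out an animal, that without atrophy replicate 2.

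Atp5f1b, the beta subunit that holds the catalytic sites and pairs with Atp5f1a in the same head, was the most abundant of the named genes. It ranged from 3184 through 4550 to 5429 CPM in control and stood at 2394, 3506 and 2838 CPM after atrophy and 4430, 3187 and 3043 CPM after repeated atrophy. It did not pass in either comparison, at -0.63 ± 0.24 (adjusted p = 0.067) and -0.35 ± 0.24 (adjusted p = 0.30). Atp5f1c, the gamma subunit of the rotor, which was named after its values were seen, ranged from 285 through 552 to 788 CPM in control and stood at 284, 332 and 261 CPM after repeated atrophy. The sham animal of that time point was as low, at 289 CPM on the left and 273 CPM on the right. The fall was -0.85 ± 0.25 (adjusted p = 0.012), which passed with the block at -0.72 and was lost without repeated atrophy replicate 1 or 3. Atp5f1d, the delta subunit of the rotor, stood at 204, 184 and 204 CPM against 193 through 285 to 369 CPM, and did not pass on the deposited scale (-0.47 ± 0.19, adjusted p = 0.060). It passed on the rescaled values (-0.86) and in 2 of the 9 fits that left out 1 animal.

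The ring of c subunits that turns in the membrane is encoded by 3 genes, Atp5mc1, Atp5mc2 and Atp5mc3, whose mature proteins are known to be alike, and 1 of the 3 passed after repeated atrophy on the deposited scale and 2, Atp5mc1 and Atp5mc3, on the rescaled values. Atp5mc1 ranged from 145 through 231 to 385 CPM in control and stood at 123, 185 and 192 CPM after atrophy, 343, 336 and 206 CPM after recovery and 109.9, 110.5 and 104 CPM after repeated atrophy. The limbs of repeated atrophy were below every control limb, but 1 sham animal was as low, at 104 CPM on the left and 110.2 CPM on the right. The fall after repeated atrophy to 0.453 of control (-1.14 ± 0.25, adjusted p = 0.0021) passed with the block at -0.98, on rescaling at -1.52 and without any 1 animal. After atrophy the change was -0.55 ± 0.25 (adjusted p = 0.12).

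Atp5mc2 ranged from 183 through 217 to 237.6 CPM in control and stood at 238.5, 240.5 and 274 CPM after atrophy, 251, 236 and 211 CPM after recovery and 237, 235 and 246 CPM after repeated atrophy. All 3 limbs of atrophy, but 1 of 3 in recovery and in repeated atrophy, were above every control limb. The changes of 0.22, 0.11 and 0.15 did not pass (adjusted p = 0.13, 0.54 and 0.28). Atp5mc3 ranged from 312 through 514 to 821 CPM in control and stood at 424, 404 and 404 CPM after atrophy, 1147, 1032 and 692 CPM after recovery and 378, 418 and 308 CPM after repeated atrophy. Its rise after recovery, 0.81 ± 0.24 (adjusted p = 0.044), was lost with the block at 0.33, on rescaling, and in every fit that left out an animal except that without recovery replicate 3. After repeated atrophy Atp5mc3 was at -0.54 ± 0.24 (adjusted p = 0.087), and at -0.93 on rescaling, where it passed (adjusted p = 0.027). This symbol had several rows in the table, and the one with the highest mean was used.

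Ratios within a limb (of CPM + 1) depend little on the scaling, and 4 of them were compared between each left-limb group and control, 12 exact two-sided permutation tests over 220 splits each, chosen after the values were seen. The smallest p that 3 limbs against 9 can give is 0.00455. The splits treat all limbs as independent, although 3 of the 9 control limbs are the right limbs of the same animals. The adjustment over the 12 tests does not cover the choice of pairs from their values. Atp5mc1 over Atp5mc2 was lower than control by -0.77 on the log2 scale after atrophy (exact p = 0.0227, adjusted over the 12 tests 0.0455) and by -1.29 after repeated atrophy (p = 0.00455, adjusted 0.0136). Within animals (left minus right limb) the 3 differences of repeated atrophy were -1.09, -1.18 and -1.39, and those of atrophy were -1.07, -0.06 and 0.07, so that after atrophy 1 animal held most of the difference. After recovery the ratio differed from the pooled control limbs by 0.15 (adjusted exact p = 0.605), whereas within the 3 animals it was lower on the left, by -0.10, -0.13 and -0.79.

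Atp5mc1 over Atp5mc3 was lower after recovery as well, by -0.55 (exact p = 0.00455, adjusted 0.0136), with -0.61, -0.50 and -0.65 within the 3 animals. After repeated atrophy it was lower by -0.60 (exact p = 0.00455, adjusted 0.0136), with -0.29, -0.94 and -0.56 within animals. After atrophy it differed by -0.18 (adjusted exact p = 0.365). Atp5mc3 over Atp5mc2 was lower after repeated atrophy by -0.69 (adjusted exact p = 0.0468), with -0.80, -0.24 and -0.84 within animals. It did not pass after atrophy or recovery (adjusted exact p = 0.0545 for each). Its limbs of repeated atrophy stood at 0.67, 0.83 and 0.33. The sham animal of that time point was lower, at 0.081 on the left and 0.247 on the right. The other sham animals were at 0.70 and 1.95 on the left and 0.66 and 1.58 on the right. In the sham animals Atp5mc1 over Atp5mc2 was -0.51, 0.63 and -1.04 on the left and -0.43, 0.49 and -0.81 on the right, so this ratio varied by more between sham animals than between the limbs of 1 animal.

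**Figure D3:**
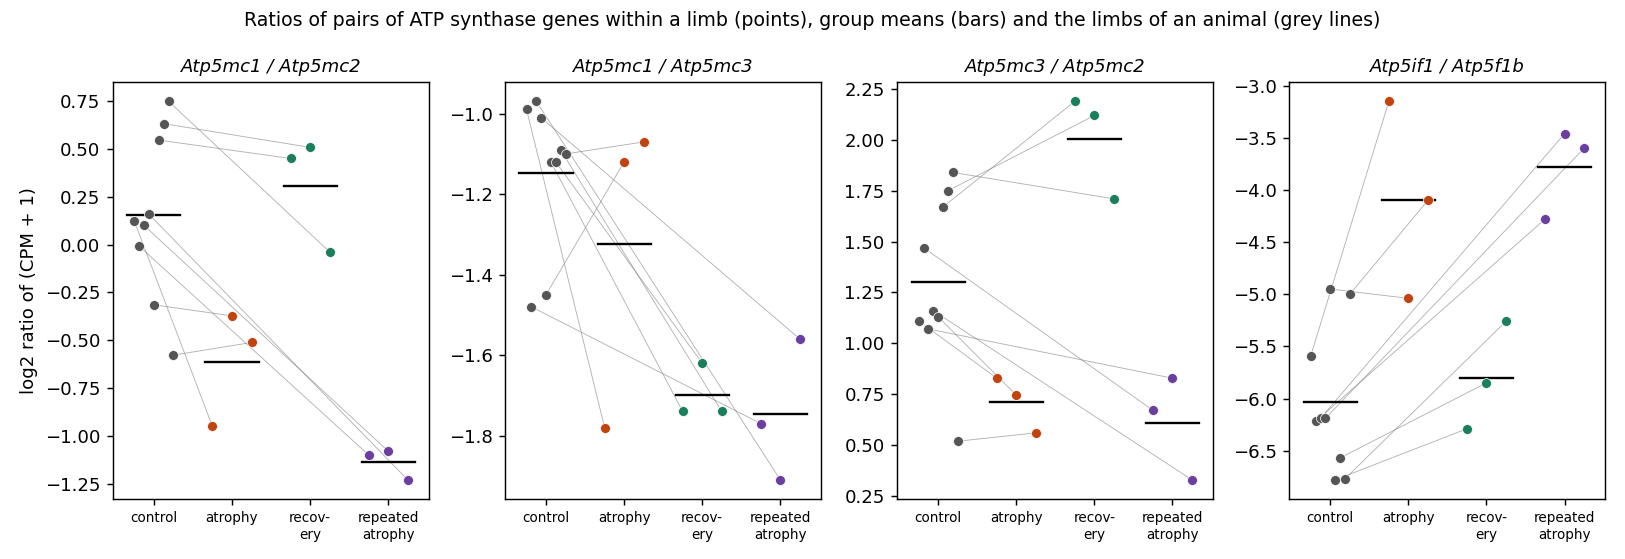
Log2 ratios of 4 gene pairs in each limb of the control, atrophy, recovery and repeated atrophy groups, with grey lines joining the limbs of 1 animal. Atp5mc1 over Atp5mc2 was lower in the left limb of all 3 repeated atrophy animals by 1.09 to 1.39, and Atp5if1 over Atp5f1b was higher by 1.94 to 2.72.

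Of the small membrane subunits of complex V, Atp5me and Atp5md rose after recovery, and Atp5mg (0.71, adjusted p = 0.063) and Atp5mf (0.37, adjusted p = 0.25) did not pass. Atp5me (subunit e) ranged from 58.5 through 161 to 322 CPM in control and stood at 434, 362 and 307 CPM after recovery, and Atp5md, which helps to hold ATP synthase dimers together, ranged from 18.8 through 50.3 to 123 CPM and stood at 151, 115 and 102 CPM. For each gene the recovery limbs were high, but 1 of 3 in Atp5me and 2 of 3 in Atp5md lay inside a wide control range. The rises were 1.31 ± 0.37 (adjusted p = 0.039) and 1.29 ± 0.38 (adjusted p = 0.045), and both passed on rescaling. Neither passed with the block (adjusted p = 0.16 for Atp5me and 0.17 for Atp5md), and each was lost without any 1 of the 3 recovery animals, atrophy replicates 1 and 3 and repeated atrophy replicate 2.

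The other 7 subunits of complex V (Atp5f1e, Atp5mf, Atp5mg, Atp5pb, Atp5pd, Atp5pf and Atp5po) passed in none of the 3 comparisons with control. Atp5mg, Atp5pf and Atp5po, of the membrane part and the outer stalk, passed as lower between repeated atrophy and recovery, at -0.97, -1.16 and -0.74, without passing with the block. Of the smaller complexes, Sdhaf1, Sdhaf3, Uqcr10, Uqcrq, Uqcc3, Cox6b1 and Cox6c passed against control in none of them either as deposited, and Uqcr10 passed as lower after repeated atrophy once rescaled (-0.64).

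Atp5if1, the inhibitor that binds the head of the ATP synthase and keeps it from running backwards, had the largest change of the 51 genes (chr5:144738950-144742669, rn7). It ranged from 46.4 through 61.4 to 118 CPM in control and stood at 269, 106 and 165 CPM after atrophy, 71.7, 82.1 and 107 CPM after recovery and 227, 289 and 249.2 CPM after repeated atrophy. The highest sham limb was at 136 CPM. Every limb of repeated atrophy was above every control and sham limb, and atrophy replicate 2 lay inside the control range. The rise was 2.47-fold after atrophy (1.303 ± 0.27, adjusted p = 0.0072) and 3.73-fold after repeated atrophy (1.90 ± 0.27, adjusted p = 0.00013). The latter passed with the block at 1.97, on rescaling at 1.52 and without any 1 animal, while the former was lost with the block (0.79, adjusted p = 0.21) and without atrophy replicate 1.

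Atp5if1 over Atp5f1b, the inhibitor against the catalytic subunit, was higher by 2.25 after repeated atrophy (exact p = 0.00455, adjusted 0.0136), and by 1.94, 2.72 and 2.58 within the 3 animals. The log2 ratio was -4.28, -3.46 and -3.60 in the limbs of repeated atrophy, and the sham animal of that time point reached this range at -4.26 on the left, with -4.84 on the right. After atrophy it was higher by 1.93 (exact p = 0.0136, adjusted 0.0327), and by 2.44, -0.09 and 0.90 within animals. After recovery it differed by 0.23 from the pooled control limbs (adjusted exact p = 0.605), with 0.49, 0.73 and 1.51 within animals.

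Subunits with longer transcripts had lower log2 fold changes. Over the 35 subunits the Spearman correlation of the log2 fold change with the exonic length came to -0.62 for atrophy, -0.26 for recovery and -0.57 for repeated atrophy, against -0.06, -0.08 and -0.03 over all rows. These points share libraries and are no replicates. After repeated atrophy 7 of the 18 subunits over 600 bases fell (median -0.51) and 1 of the 17 subunits of 600 bases or less did, Atp5mc1 (median -0.19). Of all rows of any length 6.24% passed as lower there, and the share within each length class is not given here. The same correlation was -0.70 between sham left limbs and control, where no gene passed, and the part of length in the results was not tested. On the rescaled values it was -0.64, -0.26 and -0.58 in the 3 comparisons.

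**Figure D4:**
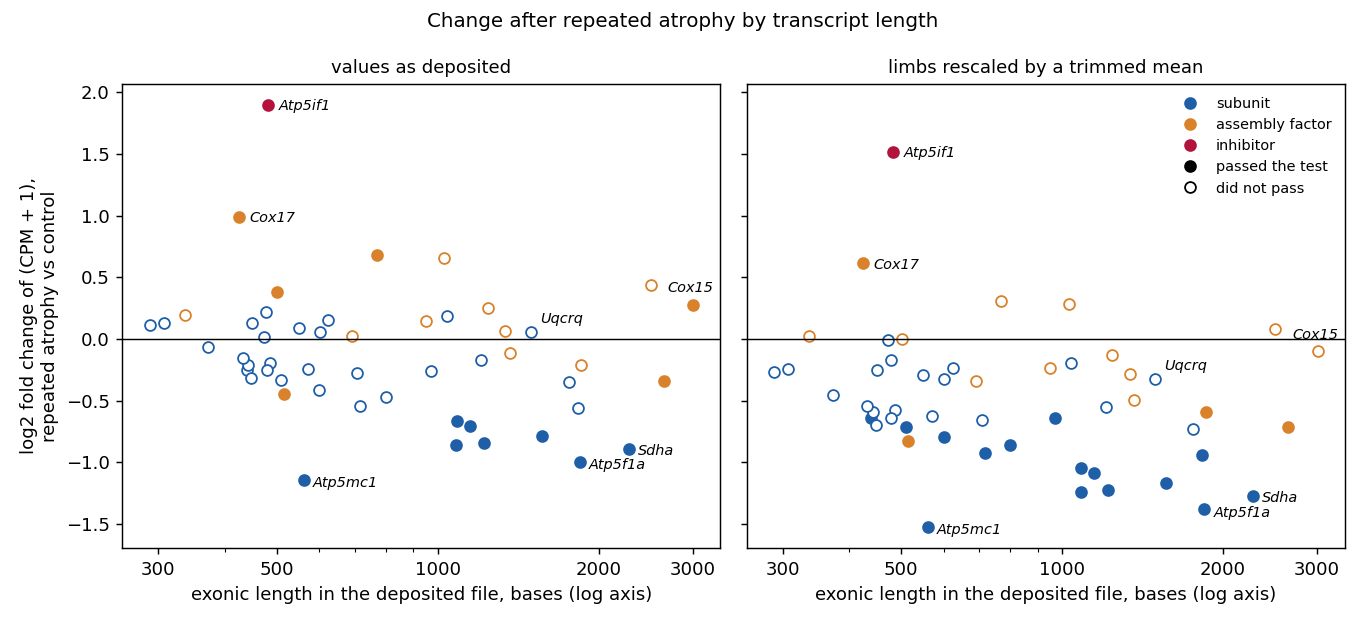
Log2 fold change of each gene after repeated atrophy against its exonic length, as deposited and after rescaling. The subunits slope downwards, with Spearman correlations of -0.57 and -0.58 over 35 subunits.

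Between recovery and atrophy, whose limbs come from different animals, 9 genes passed as higher and 2 as lower in recovery, against backgrounds of 3.34% and 14.5%. All 4 subunits of complex II, Uqcrc1, Uqcrc2 and Uqcrfs1 of complex III and Atp5f1c and Atp5mc3 of complex V rose, and Uqcc2 and Cox17 fell. Sdhc (1.07 ± 0.24, adjusted p = 0.011) and Atp5mc3 (1.19 ± 0.29, adjusted p = 0.014) are examples. Once rescaled, 9 passed as higher (5.65%) and 0 as lower (5.05%), where 40 of the 51 genes had an unadjusted p under 0.05. When each left limb was set against its own right limb (the block), 0 genes passed (limma, 1 with an unadjusted p under 0.05) and the median fell from 0.45 to 0.08. None passed without recovery replicate 1 or 2, 2 without atrophy replicate 1, 5 without atrophy replicate 3 and 7 without repeated atrophy replicate 2.

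Between repeated atrophy and recovery 16 genes passed as lower and 4 as higher, against 6.29% and 21% of all rows. The 16 were 15 subunits and Cox14, among them all 4 of complex II and 7 of the 16 of complex V, and the 4 were Atp5if1, Cox15, Cox17 and Uqcc2. Sdhc was at -1.32 ± 0.24 (adjusted p = 0.0019), Atp5mc1 at -1.40 ± 0.31 (adjusted p = 0.0040) and Atp5mc3 at -1.35 ± 0.29 (adjusted p = 0.0039). On the rescaled values 27 passed as lower (11.3%) and 1 as higher (10.3%). With the animal as a block 0 passed (10 with an unadjusted p under 0.05) and the median moved from -0.53 to -0.22. Leaving out recovery replicate 1 gave 10 calls and leaving out recovery replicate 2 gave 12. The control limbs of the recovery animals, with 0.21, 0.19 and 0.32 for the median of the 51 genes against the control mean, and those of the repeated atrophy animals, with 0.18, -0.18 and -0.28, enter the blocked comparison, and their part in the difference between the fits was not tested.

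Between repeated atrophy and atrophy 0 of the 51 genes passed by limma, with 2 (Cox14 and Cox19, named after their values were seen) at an unadjusted p under 0.05, against 0.0356% of all rows called in either direction. The median was -0.11. A larger count of calls after repeated atrophy than after atrophy is thus not a tested difference between them.

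Genes outside the 51 but of the same complexes included falls and rises. Of 4 further complex III genes, Cyc1 (cytochrome c1, -0.87) and Ttc19 (-0.69), which helps to clear fragments of the Rieske protein, fell after repeated atrophy. Of 18 further genes of complex IV assembly and translation, 5 rose after atrophy (Coa3, Coa8, Cmc1, Pet100 and Higd2a; 20.3% of all rows did), and after repeated atrophy 7 rose (Surf1, Coa8, Cmc1, Pet100, Higd1a, Higd2a and Fastkd2; 28.1% of all rows did) and 2 fell (Coa5 and Timm21; 6.24% of all rows), shares not far from those of all rows. Cmc1 had the largest rises, 1.19 and 1.13. Rescaled, 1 rose and 2 fell after atrophy, and 1 rose and 4 fell after repeated atrophy. Of 6 further genes of complex V, Fmc1, a factor for the assembly of the head, fell after repeated atrophy (-0.81). Cycs (cytochrome c, -0.97) and Cs (citrate synthase, -0.51) fell there too. With the animal as a block the falls of Ttc19 and Fmc1 and the 7 rises after repeated atrophy passed, whereas those of Cyc1, Coa5, Timm21, Cycs and Cs did not (adjusted p = 0.060, 0.23, 0.084, 0.087 and 0.11), nor did any of the 5 rises after atrophy (adjusted p from 0.157 to 0.283) or the 2 after recovery, of Sco1 and Fastkd2 (adjusted p = 0.44 and 0.16). Of 44 Nduf genes, taken by symbol for complex I, 4 fell after atrophy (2.33% of all rows), 5 rose and 1 fell after recovery (4.4% and 3.33%), and 11 fell and 1 rose after repeated atrophy (6.24% and 28.1%), with medians of -0.19, 0.44 and -0.19 against -0.14, 0.46 and -0.25 for the 35 subunits. These 44 were not split into subunits and assembly factors. They include Ndufa4, which is also among the 18 genes of complex IV, so the medians compared are of unlike sets. With the block 0 Nduf genes passed after atrophy and 0 after recovery (limma, 1 and 13 at an unadjusted p under 0.05), and 4 fell and 2 rose after repeated atrophy.

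Of the 7 oxidase paralogs in the table, Cox8a, the general form of its subunit, rose after atrophy, recovery and repeated atrophy (0.68, 0.84 and 0.89), Cox6a1, also a general form, rose after recovery and repeated atrophy (0.81 and 0.59), and the muscle form Cox6a2 fell after repeated atrophy (-0.59). With the block the rises of Cox8a and Cox6a1 after repeated atrophy passed, and those of Cox8a after atrophy and recovery (adjusted p = 0.20 and 0.11), of Cox6a1 after recovery (adjusted p = 0.23) and the fall of Cox6a2 (adjusted p = 0.081) did not. Rescaling ended the calls of Cox8a after atrophy (0.32, adjusted p = 0.15) and of Cox6a1 after repeated atrophy (0.21, adjusted p = 0.44).

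In the sham animals 0 of the 51 genes passed between the 3 left limbs and the 9 control limbs, with 2 at an unadjusted p under 0.05 (limma), against 0% of 13822 rows. The median was 0.01 as deposited and -0.21 on rescaling, where the median of all rows went from 0.17 to 0.01. The sham animals differed among themselves in both limbs. The 51 genes took 1.72%, 2.48% and 1.27% of the CPM on the left and 1.5%, 2.19% and 1.29% on the right, and both limbs of the third animal lay beside the lowest silenced limb (1.28%). Set against their own right limbs, 45 of the 51 genes were higher in the sham left limbs (median 0.18), with 15 at an unadjusted p under 0.05 and 0 passing. The endothelial markers summed to 202 to 461 CPM in the sham left limbs, 185 to 552 CPM in the sham right limbs and 170 to 248 CPM in the control limbs, and their part in these values was not tested.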

How the data were processed

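RNA was sequenced from the TA of 12 rats, both limbs each (24 samples), as directional libraries of polyadenylated RNA prepared in random order. Within Partek, the study removed ribosomal and transfer RNA reads with Bowtie2 2.2.5 and aligned the rest to rn7 with STAR. Per the submitters' processing notes and the study's methods, DESeq2, with median-of-ratios scaling, was used by the authors for their own comparisons. The authors deposited 1 table of gene values in CPM, normalized by the authors so that each column sums to 1000000. This is not median-of-ratios scaling, so the values tested here may differ from those the study tested, and that scaling was run as an alternative. How reads shared by near-identical copies and pseudogenes were divided is not given in the sources used here, and 1316 values above 0 are far below the worth of 1 read. Low values were whole reads in 84.5% to 88.1% of cases (tolerance 0.02), so no count test was run. Of 27 value columns, 3 that match no sample were not used. Of 14271 rows, 28 exact duplicates were dropped.

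Values were tested as log2(CPM + 1) with limma 3.58.1 (R 4.3.3, moderated test with a trend) in rows above 0 in at least 3 samples, over the 18 limbs of the 9 TTX animals, and in 12 limbs for sham left against control. A fold change is on this log2 scale and understates that of low genes. Calls needed a fold change of 1.2 and an adjusted p of at most 0.05. No value has a counting interval, as CPM were deposited and depth was inferred. A left and a right limb with the same animal number in the labels are those of 1 animal. Replicate numbers count within a group and do not pair limbs. Over rows of mean CPM of at least 1, the deviations of the limbs of an animal correlated at 0.118 on average in the 9 TTX animals (negative in 3) and at 0.745 in the 3 sham animals. Named genes were the core subunits, the genes with the 3 largest rises or falls per class and comparison, and genes called against their class. Atp5f1c, Uqcrc2 and Cox7a2l were added after their values were seen. The members and lists were chosen with earlier results of these data known. Upstream sequences are those of RefSeq, GRCr8. Alternatives were other scalings, filters, pseudocounts, limbs and covariates, the block and each animal left out, and, added after seeing the data, combinations of the block, rescaling and the removal of atrophy replicate 2. Permutation tests used Python 3.11.15 and scipy 1.17.1.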

Additional observations from a re-analysis of the deposited data

Results flagged for a closer look

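Of 33 groups of 9 control limbs examined for a limb far from the others, 2 had one, where chance gives about 1 in 20. The lowest control limb of Atp5mc2 was at 183 CPM, with the next at 211 CPM, a gap of 0.519 of the range. The highest control limb of Cox15 was at 72.3 CPM, with the next at 60.5 CPM, a gap of 0.642 of the range. Both limbs stayed in all results.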

How the results depend on the processing

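The counts of passing genes as reported were 5 (atrophy), 6 (recovery), 15 (repeated atrophy), 11 (recovery against atrophy), 20 (repeated atrophy against recovery), 0 (repeated atrophy against atrophy) and 0 (sham). With the animal as a replicate block, which pairs the limbs of an animal, the first 5 counts became 0, 0, 11, 0 and 0, with rescaling added 0, 0, 15, 0 and 0, and without atrophy replicate 2 as well as the block 2, 0, 12, 0 and 0. The count after atrophy became 8 by trimmed mean of log ratios, 9 by median of ratios, 9 by quantile normalization, 8 with rows of mean CPM of at least 10, and 14 without atrophy replicate 2 and rescaled. That after recovery became 3 by each of the 3 scalings, 10 with all 12 right limbs, and 3 without atrophy replicate 2 and rescaled. Recovery against atrophy gave 7 with all 12 right limbs and 7 with the animal as a random effect, and repeated atrophy against recovery gave 37 by quantile normalization. Leaving out 1 animal at a time gave 0 to 11, 0 to 8, 9 to 18, 0 to 14, 10 to 23, 0 to 0 and 0 to 0, in the same order. Directions turned for Cox7a2l after atrophy (-0.0025 by trimmed mean, -0.012 by median of ratios, -0.028 by quantile, -0.023 with the block and rescaled), for Cox15 after repeated atrophy (-0.098, -0.10, -0.13, -0.14, and -0.13 without atrophy replicate 2 and rescaled) and for Uqcc2 after repeated atrophy (-0.0011, -0.0067, -0.029, and -0.046 without atrophy replicate 2 and rescaled). The cause of these changes was not tested. Of 624 values of 26 called results under the alternatives, 464 kept call and direction, 147 kept the direction only and 13 turned, and 5 results kept their call under every alternative run. Of 79 results of named genes that did not pass, 41 changed sign and 24 passed under at least 1 alternative. With 3 animals a group, differences smaller than those called may be present.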
